A study of Mus musculus with 8 samples.

Results

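The enzymes that cut the NOTCH receptors were followed in the left and right heart field of the mouse embryo through 8 genes of the 48526 in the count table. The genes were chosen by name for their known role. *Furin* encodes a proprotein convertase, *Adam10* and *Adam17* encode membrane-bound metalloproteases that shed extracellular domains, and *Psen2*, *Ncstn*, *Aph1a*, *Aph1b* and *Psenen* encode subunits of the gamma-secretase complex. All samples were wild-type C57bl6/J male embryos at stage E8.5f. The heart field of 4 embryos, named L29-3, L43-5, L46-8 and L49-3, was micro-dissected and cut at the midline, and the left and right piece of each single embryo gave 1 poly-A RNA library each, 8 in all. The dissected piece is bulk tissue of several cell types, so that for any gene below, fewer cells of a type and less RNA per cell cannot be told apart. The comparison asks whether the genes that process NOTCH receptors differ between the sides, and the paired design also allows the embryos to be compared with each other.

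A NOTCH receptor is cut in successive steps. A furin-like convertase cleaves the precursor in the Golgi on its way to the cell surface. When a ligand on a neighbouring cell pulls on the receptor, ADAM10, and in some settings ADAM17, removes the extracellular domain. Gamma-secretase then cuts the remaining stub within the membrane and frees the intracellular domain, which enters the nucleus and acts with the DNA-binding protein RBPJ. The complex holds a catalytic presenilin, nicastrin as the large glycoprotein subunit that receives the stub, an APH-1 protein as scaffold, and PEN-2, encoded by *Psenen*, which is needed for the presenilin to mature. These enzymes also have many substrates other than NOTCH.

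The library totals ranged from 1147446 to 3520753 reads assigned to genes, with a median of 1916167, and both libraries of L49-3 were the shallowest. Markers of the second heart field reached a normalized count of 20 in 4 or more libraries for 6 of 6 genes, those of the juxta-cardiac field for 3 of 3 and those of cardiomyocytes for 5 of 6. The pieces also held transcripts of neighbouring tissues, with 5 of 5 surface ectoderm, 5 of 5 foregut endoderm, 5 of 5 endothelial, 4 of 5 neural tube, 4 of 5 paraxial mesoderm, 1 of 5 cranial neural crest and 0 of 5 primitive blood markers at that level. The lists also differed by side and by embryo. All 4 tested neural tube markers were lower on the left in log2 fold change, at -0.98 for *Sox1*, -0.83 for *Pax6*, -0.28 for *Rfx4* and -0.08 for *Sox2*. These markers are named with their values after those were seen. *Sox1* and *Pax6* had a fold of over 1.2 and a small p (unadjusted edgeR p of 0.0167 and 0.0142). Of all tested genes 3.05% had such a fold with an unadjusted p of at most 0.05. Neither marker had an adjusted p under 0.05. The 5 markers summed to 105 to 453.6 on the left and 212.9 to 606.6 on the right, with none at 0 over all libraries. The tested cardiomyocyte markers were also all lower on the left, from -0.03 for *Actc1* to -0.45 for *Myl7*. So were those of paraxial mesoderm, from -0.19 for *Pax3* to -0.29 for *Pax1*, while the other lists with several tested markers went both ways. These genes too are named after their values were seen. Among embryos, L49-3 stood apart. Its summed juxta-cardiac markers were 48 on the left and 51.5 on the right, against 203 to 425 in the other 6 libraries, and its summed neural tube markers were 453.6 and 606.6, against 105 to 353.

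The genes lie on 5 chromosomes in the GRCm38 assembly with GENCODE vM21 annotation, and all are protein coding. On chromosome 1 lie *Ncstn*, chr1:172066013-172082795, and *Psen2*, chr1:180227004-180263438, both on the minus strand. *Aph1a* lies at chr3:95893969-95898288 on the plus strand. Chromosome 7 holds *Psenen*, chr7:30561863-30563627, and *Furin*, chr7:80388585-80405436, both on the minus strand. Chromosome 9 holds *Aph1b*, chr9:66775202-66795490 on the minus strand, and *Adam10*, chr9:70678997-70780229 on the plus strand. *Adam17* lies at chr12:21323509-21373632 on the minus strand. 5 of the 8 genes share exon bases with a gene on the opposite strand, and whether the counting used the strand is not given in the sources used here. The overlap covered 4.91% of the exon bases of *Ncstn* with *Copa*, 12.9% of *Aph1a* with *Car14*, 4.35% of *Adam17* with *Iah1*, 1.29% of *Furin* with *Gm44851*, and 9.33% of *Psenen* with *U2af1l4* and 8.71% with *Gm49396*. These partners were taken from the annotation, outside the rule that named the other genes.

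Promoter windows from RefSeq, of 250 bases before and 50 bases after an annotated start on GRCm38.p6, were found for all 8 genes, 11 windows in all, because *Psen2*, *Psenen* and *Furin* have 2 each. They were searched on both strands for 6 motifs, whose matches were allowed to overlap. The motif of ETS factors, spelled CCGGAAG, was present in 4 of 11 windows, those of *Ncstn*, *Aph1a*, *Psenen* and *Adam17*, and in 8.86% of 32851 promoters of the same length. That of RBPJ, spelled GTGGGAA, was present in *Aph1a* and in the downstream window of *Psen2*, against 6.38% of promoters. A TATA box, spelled TATAAA, was present in 1 window of *Furin*, against 13.6%. The CCAAT box, spelled as its name, was in 5 windows and in 37.4% of promoters. A GC box, spelled GGGCGG, was in 6 windows and in 35.7% of promoters, and an E-box, spelled CACGTG, in 2 windows and in 7.15%. A match of these letters is a description of the sequence and not a site of binding.

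Of the windows, 3 that hold the ETS motif are printed 5′ to 3′ on the strand of the gene, with matches of all 6 motifs in capitals. *Ncstn* is shown because it holds the motif in both orientations, beginning 63 and 41 bases before the start, and because its start lies 266 bases from that of *Copa*, which runs the other way. *Psenen* is shown for its motif 62 bases before the start beside a CCAAT box, and *Adam17* for its motif 31 bases before the start beside a GC box.
*Ncstn*, chr1:172082700-172082999, minus strand: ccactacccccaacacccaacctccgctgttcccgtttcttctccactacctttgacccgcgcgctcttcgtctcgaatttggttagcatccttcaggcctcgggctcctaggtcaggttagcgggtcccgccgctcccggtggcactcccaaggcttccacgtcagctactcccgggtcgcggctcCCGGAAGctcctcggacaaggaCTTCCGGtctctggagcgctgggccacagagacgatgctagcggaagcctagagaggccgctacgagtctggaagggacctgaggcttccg
*Psenen*, chr7:30563578-30563877, minus strand: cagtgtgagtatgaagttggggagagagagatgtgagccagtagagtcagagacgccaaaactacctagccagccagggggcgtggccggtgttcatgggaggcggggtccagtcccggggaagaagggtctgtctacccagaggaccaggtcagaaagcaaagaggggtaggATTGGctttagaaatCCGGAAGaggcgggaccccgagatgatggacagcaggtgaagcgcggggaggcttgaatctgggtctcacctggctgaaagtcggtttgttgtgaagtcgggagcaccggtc
*Adam17*, chr12:21373583-21373882, minus strand: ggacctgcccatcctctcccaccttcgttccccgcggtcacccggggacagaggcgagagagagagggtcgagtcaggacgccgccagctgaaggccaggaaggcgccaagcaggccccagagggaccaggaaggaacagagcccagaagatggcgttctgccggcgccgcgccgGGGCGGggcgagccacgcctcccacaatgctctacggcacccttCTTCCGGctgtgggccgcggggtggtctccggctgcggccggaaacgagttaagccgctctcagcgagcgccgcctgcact

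*Furin* is shown with both of its windows, since they differ in composition and it was the gene of the 8 with the largest difference between embryos. The upstream window has a TATA box 23 bases before the start, a GC content of 51.3% and a ratio of observed to expected CpG of 0.359. The downstream window has no match of the TATA box, a GC content of 82.3% and a CpG ratio of 1.01. The medians over all promoters were 52.7% and 0.384. The counts are per gene, and the use of either start was not analysed here.
*Furin* upstream window, chr7:80405387-80405686, minus strand: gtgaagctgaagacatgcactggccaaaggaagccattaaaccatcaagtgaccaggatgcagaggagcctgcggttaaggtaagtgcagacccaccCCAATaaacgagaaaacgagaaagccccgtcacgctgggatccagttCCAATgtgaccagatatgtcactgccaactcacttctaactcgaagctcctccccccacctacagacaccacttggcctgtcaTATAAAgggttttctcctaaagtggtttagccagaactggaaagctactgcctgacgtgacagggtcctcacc
*Furin* downstream window, chr7:80402763-80403062, minus strand: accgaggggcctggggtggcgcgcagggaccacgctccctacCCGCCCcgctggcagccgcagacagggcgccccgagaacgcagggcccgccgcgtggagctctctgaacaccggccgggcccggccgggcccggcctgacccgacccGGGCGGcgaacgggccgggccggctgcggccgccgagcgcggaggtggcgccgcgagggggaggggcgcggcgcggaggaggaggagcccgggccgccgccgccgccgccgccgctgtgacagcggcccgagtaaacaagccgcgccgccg

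The mouse has a near-identical copy of *Aph1b*, *Aph1c*, which lies beside it on chromosome 9. The stretch from coding base 4 to 93 is shown because it holds 12 of the differences between the genes, printed in capitals and read from the reference genome.
*Aph1b*: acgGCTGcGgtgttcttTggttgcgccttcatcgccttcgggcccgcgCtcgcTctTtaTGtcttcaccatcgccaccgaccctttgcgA
*Aph1c*: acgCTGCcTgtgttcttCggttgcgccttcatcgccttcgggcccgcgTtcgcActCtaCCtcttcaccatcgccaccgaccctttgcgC
Over the whole coding sequence the 2 genes were 96.2% identical with an unbroken run of 341 identical bases, and 32.9% of windows of 130 bases, the length of a read, were the same in both. Over the transcripts, where the untranslated parts differ more, identity was 76.3% and 4.74% of such windows were the same. The reads counted for *Aph1c* were 9 over all libraries against 161 for *Aph1b*, or 5.29% of their sum. How reads that fit both copies were assigned is not given in the sources used here, so the counts of both are uncertain. *Aph1a* and *Aph1b* had 63.3% identity in their coding sequences and no window of 130 bases in common.

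All 8 genes had reads in every library, at levels that spanned an order of magnitude per length. CPM divided by the kilobases of exon was used, since raw counts grow with the length of a gene. *Adam10* stood first with 28.5 ± 1.82 (SD over 4 embryo means), above 79.1% of the 9744 genes tested. *Ncstn* followed with 22.6 ± 1.58, *Psenen* with 17.8 ± 2.70 and *Adam17* with 13.3 ± 0.543. Each of these stood above the next gene in at least 7 of 8 libraries and in all 4 embryo means. *Aph1a*, at 8.98 ± 1.39, and *Furin*, at 8.63 ± 1.82, did not differ beyond their spread, the first being higher in 4 of 8 libraries. Both stood above *Psen2* in 8 of 8 libraries. *Psen2* had 2.33 ± 0.168 and *Aph1b* 1.86 ± 0.257, above only 5.8% and 3.1% of tested genes. The presenilin and this APH-1 gene were thus the 2 lowest of the 8 on this scale, with *Psen2* higher than *Aph1b* in 6 of 8 libraries.

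**Figure D1:**
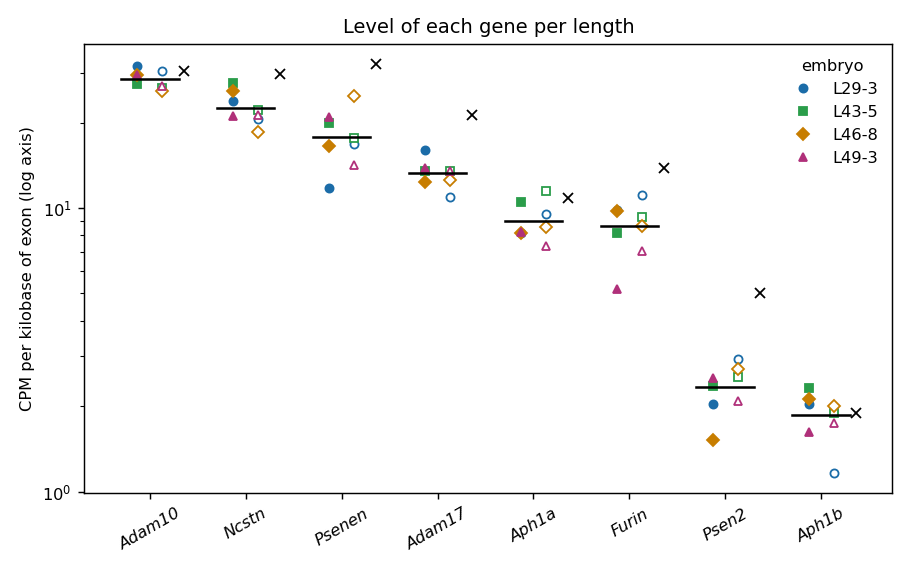
Level of the 8 genes in CPM per kilobase of exon on a log axis. Filled symbols are left and open symbols right libraries, black lines the means over 8 libraries, and crosses the means computed with the longest transcript in place of all exons; *Psen2* and *Aph1b* lie below the other 6 genes in every library.

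The order within the upper group rested on the length that was used. With the length of the longest transcript, *Psenen* stood first at 32.1, *Adam10* second at 30.4 and *Ncstn* next at 29.8, and *Furin*, at 13.8, passed *Aph1a*, at 10.8. 25 of the 28 pairs of genes kept their order. *Psen2*, at 5.00, and *Aph1b*, at 1.89, remained the lowest. Among the substrates on the scale of all exons, *Notch3* had 20.2 CPM per kilobase, *Notch2* 13.5, *Notch1* 4.36 and *Notch4* 1.37.

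With edgeR, the main test here, the side comparison found 0 members past the threshold of the study, a fold of 1.2 or more in either direction together with an unadjusted p no higher than 0.05. The study also applied this threshold to DESeq2 and limma-voom, and a gene that passed with any of the tools, edgeR included, entered its list. The paper named *Ncstn* as a candidate for asymmetry. DESeq2 gave 0 members here and limma-voom gave 1, *Ncstn*, at a log2 fold change of 0.28. Of all tested genes 3.05% passed it with edgeR, 1.63% as higher and 1.42% as lower on the left. 7 of the 8 genes passed the filter on low counts, a normalized count of 20 or more in 4 libraries. *Aph1b* did not, with 2 libraries at that level. Of the 7, 3 were higher on the left and 4 lower, against 48.6% of all tested genes higher on the left. *Ncstn* alone had an unadjusted p of at most 0.05, a mark that 4.36% of tested genes met, and 0 had an adjusted p under 0.05 with edgeR, DESeq2 or limma-voom, against 1 of 9744 genes with edgeR (0.0103%). In no member were the 4 left libraries separate from the 4 right libraries, which was so for 2.51% of tested genes. Only *Adam10* had the same direction in all 4 embryos, against 12.4% of tested genes. The median log2 fold change of the 7 was -0.08, against -0.0042 for all tested genes, and the median size without sign was 0.13, against 0.0936.

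**Figure D2:**
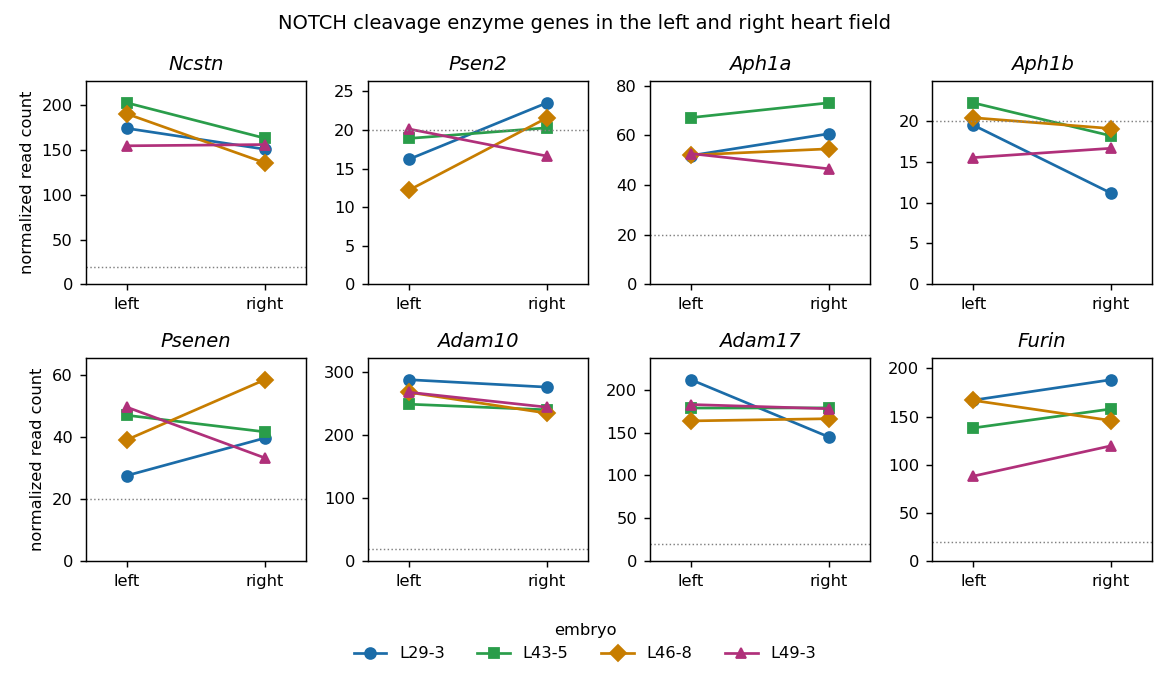
Normalized read count of each gene in the left and right library of each embryo, joined by a line for the embryo, with the dotted line at the background of 20. The left and right values overlap for all 8 genes, and *Furin* in L49-3 lies below the other embryos on both sides.

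*Furin*, the convertase of the first cut, had a normalized count of 167.0 left against 188.2 right for L29-3, 138.2 against 157.9 for L43-5, 166.8 against 145.9 for L46-8, and 88.3 against 119.7 for L49-3. The left was lower in 3 embryos and higher in L46-8, and the sides overlapped. Left over right, the log2 fold change was -0.13 (SE 0.114, 95% interval -0.38 to 0.12; edgeR adjusted p = 0.987). It was -0.07 without L49-3 and -0.24 without L46-8.

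*Adam10*, the main sheddase of ligand-bound NOTCH, had the most reads of the 8 and the steadiest level. Its normalized counts were 287.8 left against 276.1 right for L29-3, 249.0 against 240.1 for L43-5, 267.8 against 234.8 for L46-8, and 267.9 against 244.3 for L49-3. The left was higher in 4 of 4 embryos, but the left of L43-5 was under the right of L29-3, so the sides overlapped. The log2 fold change was 0.10 (SE 0.077, 95% interval -0.07 to 0.27; edgeR adjusted p = 0.987), an interval that ran from 0.956-fold to 1.21-fold.

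*Adam17*, a sheddase best known for releasing membrane-bound cytokines and growth factors, had 211.6 left against 144.8 right for L29-3. The other embryos had 178.6 against 178.8 for L43-5, 163.6 against 166.2 for L46-8, and 182.7 against 177.8 for L49-3. The difference thus lay in L29-3, and the other 3 embryos differed by 0.03 or less on the log2 scale. Over the 4 embryos the log2 fold change was 0.13 (SE 0.112, 95% interval -0.11 to 0.38; edgeR adjusted p = 0.987), and without L29-3 it was 0.0005. *Iah1*, whose exons overlap the end of *Adam17* on the other strand, had 255 reads in all and a log2 fold change of 0.33 (SE 0.234), and its part in the count was not tested.

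*Ncstn*, encoding nicastrin, had normalized counts of 174.3 left against 151.0 right for L29-3, 202.8 against 163.3 for L43-5, 190.5 against 135.8 for L46-8, and 154.8 against 156.2 for L49-3. The left was higher in 3 embryos and level with the right in L49-3, whose left was also lower than the right of L43-5. The log2 fold change was 0.26 (SE 0.103, 95% interval 0.04 to 0.49), with an unadjusted edgeR p of 0.0261 and an adjusted p of 0.987. The fold of 1.199 lay just under the 1.2 of the study, and it lay on the other side in several alternatives given in the closing section. The opposite gene *Copa* had a log2 fold change of 0.11 (SE 0.0681) with 5329 reads, and its part in the count of *Ncstn* was not tested. Neither was the part of the neural tube, cardiomyocyte or paraxial mesoderm tissue, whose tested markers were lower on the left.

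*Psen2*, a presenilin, had low counts, at 10 to 38 reads per library. Its normalized counts were 16.2 left against 23.5 right for L29-3, 18.9 against 20.3 for L43-5, 12.2 against 21.6 for L46-8, and 20.1 against 16.6 for L49-3. The left was lower in 3 embryos and higher in L49-3. The log2 fold change of -0.31 (SE 0.275, 95% interval -0.91 to 0.29; edgeR adjusted p = 0.987) had the widest interval of the tested genes here, from 0.533-fold to 1.23-fold. Its coefficient of variation over the libraries, 19.0%, was under the 24.0% that counting error alone gives. Without L46-8 the log2 fold change was -0.16 and without L49-3 it was -0.43.

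Of the APH-1 genes, *Aph1a* did not pass the test, and *Aph1b* was under the filter and not tested in the main fit. *Aph1a* had 51.9 left against 60.7 right for L29-3, 67.2 against 73.1 for L43-5, 52.1 against 54.6 for L46-8, and 52.6 against 46.5 for L49-3. L43-5 was the highest on both sides, and the left was lower in 3 embryos. This gave a log2 fold change of -0.08 (SE 0.152, 95% interval -0.42 to 0.25; edgeR adjusted p = 0.987), which was -0.04 without L29-3 and -0.14 without L49-3. *Aph1b* had 19.5 against 11.1 for L29-3, 22.2 against 18.1 for L43-5, 20.4 against 19.0 for L46-8, and 15.5 against 16.6 for L49-3. In a fit with no filter its log2 fold change was 0.29 (SE 0.298, 95% interval -0.29 to 0.88; edgeR adjusted p = 0.997), and its variation of 19.1% was again under the counting error of 24.0%. *Car14*, on the strand opposite to *Aph1a*, had a log2 fold change of 0.06 (SE 0.11).

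*Psenen*, encoding PEN-2, had the values that crossed over most between embryos. Its normalized counts were 27.6 left against 39.6 right for L29-3, 46.9 against 41.6 for L43-5, 39.1 against 58.4 for L46-8, and 49.6 against 33.2 for L49-3. The left was lower in 2 embryos and higher in the other two. Its log2 fold change was -0.11 (SE 0.22, 95% interval -0.59 to 0.37; edgeR adjusted p = 0.987), and its sign turned when L29-3 or L46-8 was left out. The opposite genes *U2af1l4* and *Gm49396* had 3 and 23 reads over all libraries, against 362 for *Psenen*.

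**Figure D3:**
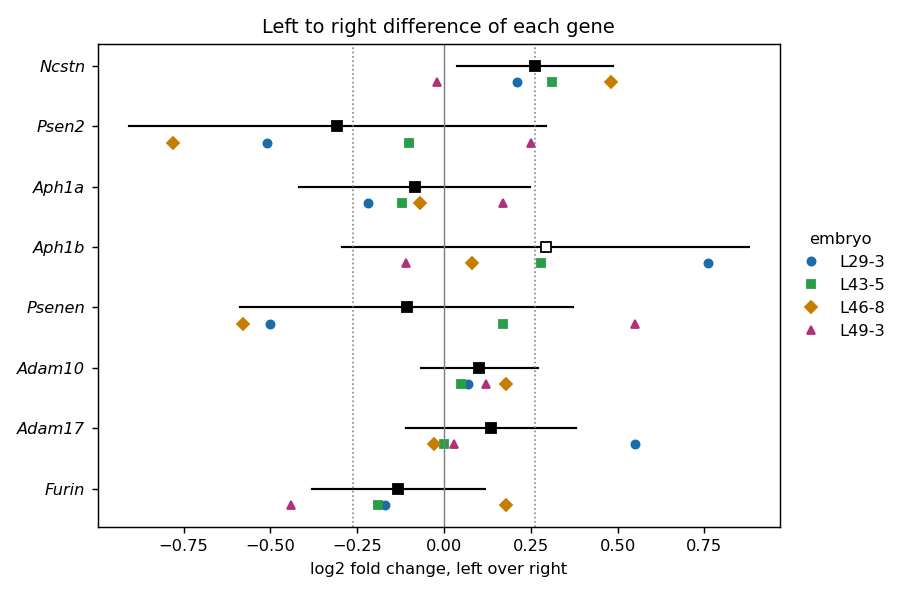
Log2 fold change of left over right for each gene, as squares with 95% intervals from edgeR (open for *Aph1b*, from the fit with no filter), and the ratio in each embryo as coloured symbols below. Dotted lines mark a fold of 1.2 in either direction; the interval of *Ncstn* alone lies clear of 0, from 0.04 to 0.49.

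Ratios between members within a library, which do not depend on the library total, were compared over the 28 pairs of the 8 genes. The ratio moved in the same direction in 4 of 4 embryos for 2 pairs (7.14%), against 12.4% of all pairs of tested genes. The first was *Ncstn* to *Furin*, whose ratio of reads was 1.04 left against 0.803 right for L29-3, 1.47 against 1.03 for L43-5, 1.14 against 0.930 for L46-8, and 1.75 against 1.31 for L49-3. It was higher on the left in every embryo by 0.40 ± 0.0879 on the log2 scale (SD, n = 4 embryos), which gave the smallest p that an exact two-sided sign-flip test over 4 pairs can give, one above 0.05. In L49-3 *Ncstn* itself was level between the sides and *Furin* was lower on the left, while in L46-8 both were higher on the left. The second pair was *Psen2* to *Psenen*, with a ratio of 0.588 against 0.594 for L29-3, 0.403 against 0.487 for L43-5, 0.313 against 0.370 for L46-8, and 0.406 against 0.50 for L49-3. It was lower on the left by 0.21 ± 0.131 on the log2 scale (SD, n = 4), with that same p. The share of such pairs was under the background, and the sizes of these ratios were not set against those of other pairs.

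The embryos differed from each other most in *Furin*. Its mean over both sides was 104.0 in L49-3, against 177.6, 148.1 and 156.4 for L29-3, L43-5 and L46-8. Both libraries of L49-3 lay below all 6 others, and its mean was lower than that of the other embryos by a log2 deviation of -0.62. How many of all tested genes set L49-3 apart from the other libraries in this way was not counted. *Furin* alone of the 7 tested members had an unadjusted edgeR p of at most 0.05 for the embryo term, at 0.00633, a mark met by 9.99% of tested genes, and its adjusted p was 0.235. Adjusted p-values under 0.05 were found for 0 of 7 members and for 0.174% of tested genes. This test took the left and right library of an embryo as its replicates. It thus set differences between embryos against the spread between libraries of the same embryo. With no filter on low counts the adjusted p of *Furin* was 0.0128, and without L49-3 its unadjusted p was 0.231, so the difference rested on that embryo. The coefficient of variation of *Furin* over the libraries was 21.4%, against 8.41% from counting error.

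L49-3 was also the embryo with the lowest juxta-cardiac markers and the highest neural tube markers, as given above. Its summed cardiomyocyte markers were 552.7 and 1931 against 1742 to 5028 in the other libraries, and its summed endothelial markers were 427.1 and 586.8 against 689.9 to 776.5. Summed surface ectoderm markers were also lower, at 1311 and 1501 against 1537 to 1915, but the markers of this list were split. *Krt8* (mean 467.8 against 676.6 in the other embryos) and *Krt18* (409.6 against 535.5) were lower in L49-3. *Epcam* (164.1 against 155.7), *Cdh1* (292.1 against 274.1) and *Tfap2a* (72.4 against 53.9) were higher. These markers too are named after their values were seen. Summed second heart field markers were not lower, at 738.5 and 769.4 against 524.8 to 764.2, but this list was split too. *Mef2c*, named after its value was seen, was lower in L49-3 (mean 184.2 against 272.5). *Isl1*, *Six2*, *Fgf8*, *Tbx1* and *Fgf10* were higher. The part of these tissues in the level of *Furin* was not tested. The other members differed less between embryos. *Aph1a* was highest in L43-5, with a mean of 70.1 against 49.6 to 56.3 (unadjusted edgeR p of 0.142), and *Psenen* lowest in L29-3, with 33.6 against 41.4 to 48.7 (unadjusted edgeR p of 0.412). *Adam10* varied by 7.32% over the libraries, close to the 6.44% from counting error and under the median of 14.2% over tested genes. *Ncstn* varied by 13.1% and *Adam17* by 11.0%, with counting errors of 7.90% and 7.76%.

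**Figure D4:**
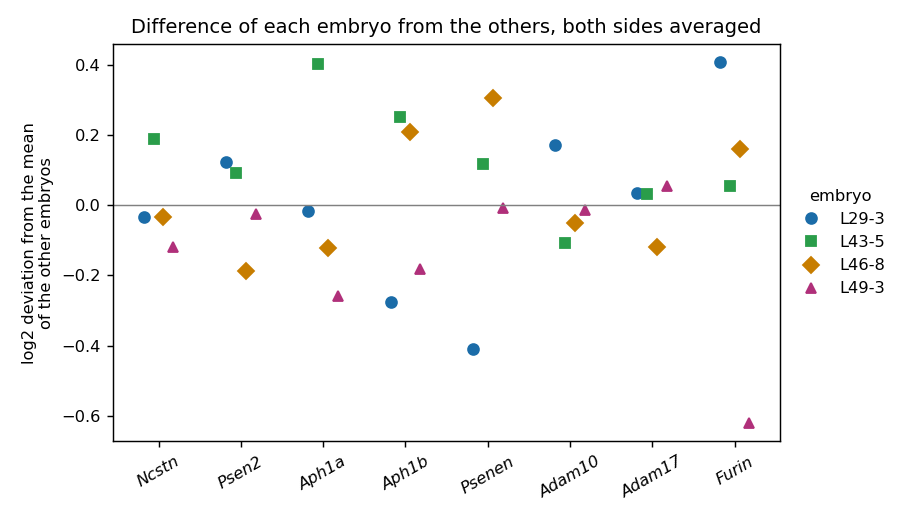
Log2 deviation of each embryo from the mean of the other 3, with both sides averaged, for the 8 genes. *Furin* in L49-3, at -0.62, lies farthest from 0, and L29-3 lies highest for the same gene at 0.41.

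For each tested member the 3 genes whose log2 CPM correlated most closely with its own over the 8 libraries were listed. They describe libraries that share depth and embryo, and the levels of the genes can differ. The highest of many correlations over 8 libraries can be large by chance, and no link between the genes was tested. For *Ncstn* these were *Tgoln1*, *Nbas* and *Snx13* (Pearson r = 0.975, 0.973 and 0.966), *Tgoln1* encoding a protein of the trans-Golgi network. For *Furin* they were *Fam49a*, *Atp6v0d1* and *Ldb3* (r = 0.984, 0.981 and 0.976), *Ldb3* encoding a protein of the muscle Z-disc and *Atp6v0d1* a subunit of the vacuolar proton pump. *Adam10* was closest to *P4ha1*, *Pcdhgc3* and *Nt5c3b* (r = 0.956, 0.936 and 0.935), and *Adam17* to *Dab1*, *Stox2* and *Ube2t* (r = 0.932, 0.914 and 0.911). *Psenen* was closest to *Asns*, *Pwp1* and *Cars* (r = 0.962, 0.953 and 0.953), *Asns* encoding asparagine synthetase. *Aph1a* was closest to *Dbr1*, *Gng12* and *Kcmf1* (r = 0.944, 0.926 and 0.926), and *Psen2* to *Pias2*, *Crtap* and *Txndc15* (r = 0.914, 0.910 and 0.908). No member was among the closest genes of another. Among members r ran from -0.616, between *Ncstn* and *Psen2*, to 0.567, between *Ncstn* and *Aph1b*.

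The genes around the cleavage enzymes were described in 9 lists, of whose genes 67 were tested. 46 of the 67 (68.7%) were higher on the left and 21 lower, against 48.6% of all tested genes higher on the left. The median log2 fold change of the 67 was 0.09, against -0.0042 for all tested genes. 2 passed the study threshold (2.99%, against 3.05% of all tested genes), and 0 had an adjusted p under 0.05. The 2 were the receptor *Notch3*, at a log2 fold change of 0.28 (SE 0.0995; edgeR adjusted p = 0.987), and the ligand *Jag1*, at 0.32 (SE 0.124; edgeR adjusted p = 0.987). The receptors and ligands together had 3 higher and 3 lower of 6 tested (median 0.10), and the ligand *Jag2*, outside the naming rule, had -0.31 (SE 0.28). Of the other receptors, *Notch1* had 0.20 (SE 0.16), *Notch2* -0.01 (SE 0.0894) and *Notch4* -0.56 (SE 0.382). Genes with more exon bases in total were higher on the left more often in these libraries. The share was 57.8% of the 3244 genes in the longest class by total exon length, 49.9% of the middle class and 38.1% of the shortest. Of the list genes in these classes, 22 of 31, 19 of 26 and 5 of 10 were higher on the left. The parts of length and of the tissues with markers lower on the left in the list counts were not tested.

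By role, the gamma-secretase assembly and modulator genes had 3 higher and 3 lower of 6 tested (median log2 fold change 0.06), and the other intramembrane proteases of the same fold 2 higher and 1 lower of 3 (0.13). The regulators of ADAM10 and ADAM17, which are tetraspanins, iRhom proteins and inhibitors, had 7 higher and 1 lower of 8 (0.10), and the other sheddases 4 higher and 1 lower of 5 (0.12). The other convertases had 2 higher and 3 lower of 5 (-0.13), and none passed the threshold. The enzymes that put O-linked sugars on NOTCH in the secretory pathway had 3 higher and 4 lower of 7 (-0.04). Other substrates of the sheddases and gamma-secretase had 14 higher and 3 lower of 17 (0.07), and growth factors and receptors cut by furin-like convertases had 8 higher and 2 lower of 10 (0.12). 3 further genes were chosen after their values were seen. *Lrp1*, an endocytic receptor cut by gamma-secretase, had 0.24 (SE 0.0648; edgeR adjusted p = 0.987) and *Efnb2*, an ephrin, 0.24 (SE 0.0817; edgeR adjusted p = 0.987). Both were higher on the left in 4 of 4 embryos with folds under 1.2. *Bace1*, a sheddase best known from neurons, had -0.14 (SE 0.0961; edgeR adjusted p = 0.987) and was lower on the left in 4 of 4. Of all tested genes 12.4% had the same direction in all 4 embryos.

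**Figure D5:**
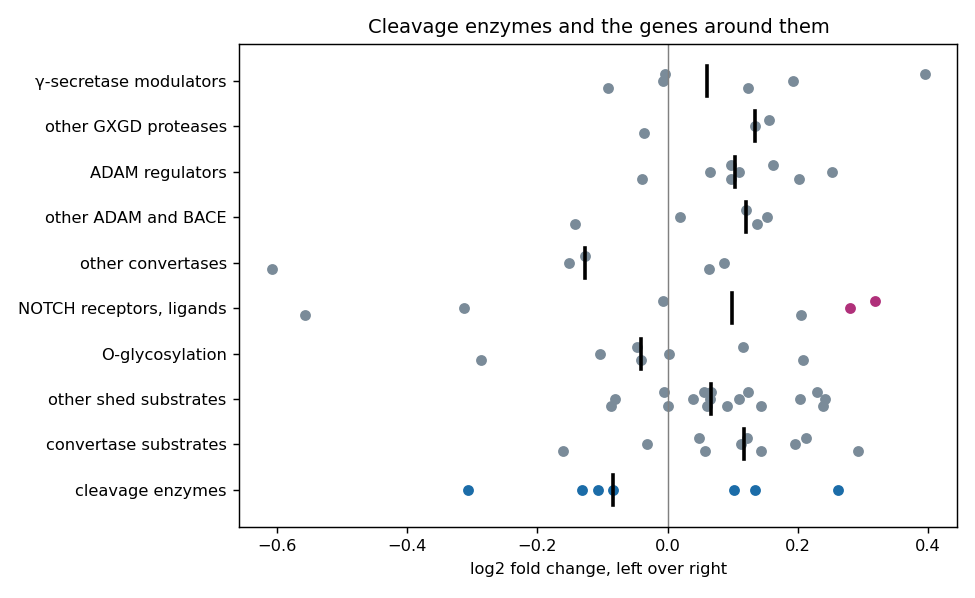
Log2 fold change of left over right for the 67 tested genes of the 9 lists and, in the bottom line, the 7 tested cleavage enzymes. Each point is a gene, black bars are medians, and the 2 coloured points among the NOTCH receptors and ligands are *Notch3* at 0.28 and *Jag1* at 0.32.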

How the data were processed

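RNA from the left and right heart field of 4 mouse embryos was measured in 8 libraries, grouped by the side and embryo in the labels. The values deposited by the authors are raw counts per gene. Per the paper's methods and the labels, the authors aligned paired reads to GRCm38/mm10 with Hisat2, excluded duplicates, which were a large share of the reads, and counted with featureCounts. Versions and the strand setting are not given in the sources used here. Excluding duplicates can lower the counts of abundant short genes.

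The tests of side and embryo used edgeR 4.0.16 under R 4.3.3 (TMM, quasi-likelihood, embryo as a block, Benjamini-Hochberg adjustment) on the 9744 genes at or above a normalized count of 20 in 4 or more of the 8 libraries, after a test on simulated counts. Normalized counts are counts divided by DESeq2 1.42.0 size factors. Log2 ratios per embryo used CPM plus 0.5, and limma 3.58.1 was an alternative tool. The libraries of an embryo come from 1 animal, which pairs them. The correlation of their deviations was 0.165, 0.19, -0.016 and 0.437 in L29-3, L43-5, L46-8 and L49-3, and -0.389 to 0.255 between embryos. No 2 libraries agreed within sampling noise (chi-square over degrees of freedom 1.91 or more). Totals were 1147446 to 3520753 counts, and a count of 0 allows up to 3. Sequences are from RefSeq and the reference genome, aligned with Biopython.

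The 8 genes and all lists were chosen with earlier results of these data known. The text names the 8 genes, the genes of the lists past the threshold of the study, *Notch1* to *Notch4*, *Aph1c*, and the 3 genes closest to each tested member, and marks the others. The list symbol *Hm13* was not matched and is not analysed here. Alternatives tried were limma-voom, DESeq2, its size factors, library size alone, a fit without the block, no filter, a filter of 10 counts in each library, and leaving out each embryo.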

Additional observations from a re-analysis of the deposited data

Results flagged for a closer look

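*Aph1a* was flagged because 1 library lay far from the other 3 of its side. On the left, L43-5 had a normalized count of 67.15, and the gap to the nearest other library was 0.95 of the range of the 4. The right library of the same embryo was also the highest of its side, at 73.1. In all, 16 groups of 4 libraries were examined, and chance flags about 1 in 20.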

How the results depend on the processing

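No member had an adjusted p under 0.05 between the sides in any alternative run. Members past the threshold of the study were 0 with the main edgeR fit. They were 1, *Ncstn*, with library size alone (log2 fold change 0.27), no filter (0.28) and a filter of 10 counts in each library (0.26). With limma-voom *Ncstn* passed too (0.28), and a pass with any tool put a gene on the study's list. When an embryo was left out, the members past the threshold numbered 0 to 1. For *Ncstn* the leave-one-out values were 0.28 without L29-3 and 0.33 without L49-3, past the threshold, and 0.24 without L43-5 and 0.20 without L46-8, not past it. It also stayed under the threshold with DESeq2, DESeq2 size factors and no embryo block. Without the block the value of *Ncstn* was 0.26 and 233 genes passed the study threshold, against 297 with the pairing, and 0 genes against 1 had an adjusted p under 0.05. Leaving out an embryo moved *Psenen* from -0.26 without L49-3 to 0.067 without L46-8, its sign also turning without L29-3, at 0.01. Of 77 alternative fold changes, 69 kept their direction and side of the threshold, 6, all of *Ncstn*, came to pass it and 2 turned. The cause of these shifts was not tested. Genes past the study threshold numbered 687 with no filter, which tests more genes, and 59 with DESeq2. Genes with an adjusted p under 0.05 between the sides were 34 with no filter, 0 with at least 10 counts, 2 with DESeq2 and 1 to 5 when an embryo was left out. Between embryos, 0 members passed as reported and 1, *Furin*, with no filter. Genes passing were 17, and 641 with no filter, 9 with at least 10 counts, 48 with DESeq2, 4 with limma-voom and 0 to 237 when an embryo was left out, with 0 without L49-3 and 237 without L46-8. Leaving out an embryo moved *Furin* from -0.24 to -0.07, *Psen2* from -0.43 to -0.16 and *Aph1a* from -0.14 to -0.04 on the log2 scale, with no call changed. *Psen2* had 10 to 38 reads per library, which limits its precision, and it did not pass the filter without L43-5.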
